A study of Mus musculus with 6 samples.

Results

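The genes described here are 10 mouse genes of fibroblast growth factor (FGF) signalling: the receptor genes Fgfr1, Fgfr2 and Fgfr3, the ligand genes Fgf8 and Fgf10, the Sprouty inhibitor genes Spry1, Spry2 and Spry4, and the target transcription factor genes Etv4 and Etv5. They were taken by name from 21776 protein-coding genes of the mm10 RefSeq table. Peaks belonged to a gene when they lay within 1 kb of either annotated end, in its body, or nearer to its ends than to those of any other protein-coding gene, up to 100 kb away. By this rule the 10 genes held 31 of 31873 and 38 of 26927 peaks in CHD7 libraries 1 and 2, and 29 of 24283 and 30 of 22686 peaks in H3K27ac libraries 1 and 2. Input libraries 1 and 2 had 0 of 451 and 0 of 512 peaks there, while 1.24% of all protein-coding genes had an input peak.

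The study mapped CHD7, a chromatin remodelling ATPase, and H3K27ac, an acetylated histone found at active promoters and enhancers, by chromatin immunoprecipitation with sequencing (ChIP-seq) in mouse cardiac neural crest cells at stage E10.5. The groups were CHD7 ChIP, H3K27ac ChIP and input chromatin, with 2 libraries each. All came from GFP-positive cells sorted from pharyngeal arches 3 to 6 of Wnt1Cre2; mtmg embryos, bred from Wnt1-Cre2 males and mTmG females. Wnt1-Cre2 drives recombination in the dorsal neural tube and the neural crest that leaves it, so the sort takes cells by lineage and not by their present state. The labels name no separate litters or sorts, so a spread between the libraries of a group may be technical. The sequencing depth of the libraries is unknown.

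FGF ligands bind receptor tyrosine kinases and switch on the Ras and MAP kinase cascade. The ETS factors ETV4 and ETV5 are among the genes that this cascade induces, and Sprouty proteins are induced by it and dampen it, which closes a feedback loop. In the pharyngeal arches FGF8 comes mainly from epithelium and mesoderm, and neural crest cells receive the signal through FGFR1 and other receptors.

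Of the 12 neural crest marker genes checked, 3 had CHD7 and 2 had H3K27ac within 1 kb of an end, against 44.2% and 47.6% of all protein-coding genes. At an end, in the body or nearest, 9 had CHD7 and 5 had H3K27ac, against 56.1% and 56.9% of all. The median stretch of genome from which a region would be assigned was 142.5 kb for these markers and 50 kb for all genes. CHD7 lay at Ets1 (folds 3.75 and 3.75), Snai2 (3.49 and 2.94) and Sox9 (2.14 and 2.24), the last with H3K27ac as well, and H3K27ac alone at Twist1. Dlx5, Foxd3, Msx1 and Pax3 were among the 8 with neither. These numbers are the fold enrichments described with Fgfr1 below. Of 6 markers each, CHD7 and H3K27ac lay at an end of 0 and 0 cardiomyocyte, 1 and 0 endothelial, 2 and 2 epithelial, and 2 and 3 blood markers. At an end, in the body or nearest, it was 1 and 0, 2 and 3, 3 and 4, and 4 and 4, with median stretches of 35, 157.5, 65 and 40 kb. The few markers with a region at an end had median CHD7 folds of 3.21 (neural crest), 3.20 (endothelial), 3.15 (epithelial) and 3.67 (blood). For H3K27ac these were 2.65 (neural crest), 3.95 (epithelial) and 4.77 (blood). What other cell types contribute to the peaks of the FGF genes was not tested.

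CHD7 and H3K27ac lay at the ends of most of the receptor, Sprouty and ETS genes and at neither ligand gene. A region found in both libraries of a group is called a region below. CHD7 regions lay within 1 kb of an end of 6 of the 10 genes, against 44.2% of all protein-coding genes. H3K27ac regions lay there at 8 of 10, against 47.6%. Fgfr1, Fgfr2, Fgfr3, Spry1, Spry4 and Etv5 had both marks, against 39.3% of all genes, and Spry2 and Etv4 had H3K27ac alone, against 8.29%. No gene of the 10 had CHD7 alone, against 4.83%. The marks overlapped at 5 genes, all of the 6 but Fgfr2, against 37.9% of all genes. Fgf8 and Fgf10 had neither, as 47.5% of all genes did. An input peak of either library lay at an end of 0.156% of all genes. With 10 genes, a share of 6 or 8 is a description and was not tested. Under stricter limits on the peaks, given near the end, the shares of the 10 genes were no higher than those of all genes.

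Counting bodies and surroundings as well, 9 of the 10 genes had a CHD7 region and 8 an H3K27ac region, against 56.1% and 56.9% of all genes. At least 3 CHD7 regions belonged to 5 of the 10 genes, against 8.84% of all, and at least 3 H3K27ac regions to 6 of 10, against 6.92%. These genes also had more room to collect regions: the median stretch of genome from which a region would be assigned was 90 kb for them and 50 kb for all genes. The part of that stretch in the counts was not tested. In all there were 23 CHD7 regions, 9 at ends, 1 in a body and 13 nearest, and 22 H3K27ac regions, 10 at ends, 3 in bodies and 9 nearest.

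**Figure D1:**
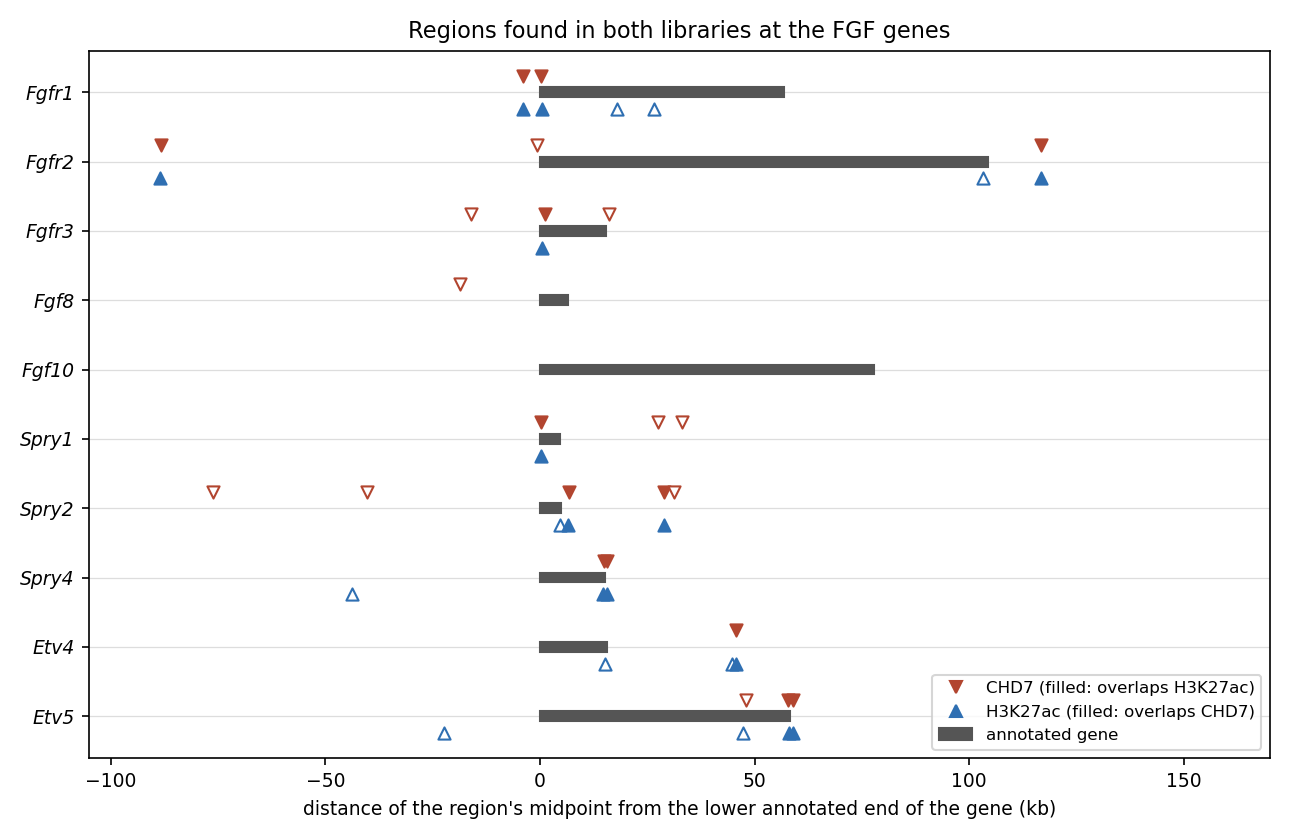
Position of each region found in both libraries, as the distance of its midpoint from the lower annotated end of its gene in kb (x axis), for the 10 genes (rows). CHD7 regions are drawn above and H3K27ac regions below the grey gene bar, filled where they overlap the other mark. Fgf10 has none, and the 5 CHD7 regions of Spry2 spread over both sides of the gene.

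Fgfr1, the main FGF receptor of mesenchyme, carried both marks just inside its lower end, on chromosome 8. The CHD7 region, 25518803 to 25519303, began 44 bp inside the gene and had folds of 3.22 and 3.78 in libraries 1 and 2. Fold here is the enrichment at the peak summit that the authors' peak caller gave. The H3K27ac region, 25518823 to 25519485, had folds of 4.04 and 3.86. A second pair lay 3.50 kb outside the same end. There CHD7 had folds of 2.80 and 2.63 (25514586 to 25515256) and H3K27ac had 4.36 and 3.47 (25514281 to 25515431), so the CHD7 region lay wholly within the H3K27ac region. The body held 2 further H3K27ac regions, 17.7 and 26.3 kb from the lower end, with mean folds of 3.19 and 3.32. CHD7 library 2 had a peak over each, with folds of 2.48 and 2.58. CHD7 library 1 had a peak of fold 2.59 that reached the edge of the farther one but did not overlap the peak of library 2.

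Fgfr2, whose splice forms bind different ligands in epithelium and mesenchyme, differed in that the marks lay at opposite ends. The gene is on the minus strand of chromosome 7. Its CHD7 region, 130161169 to 130162228, lay 223 bp beyond the 3′ end of the gene, with folds of 2.97 and 2.64. Its H3K27ac region, 130265065 to 130266138, lay 670 bp inside the annotated start, with folds of 2.34 and 2.58. In library 1 this region joined separate peaks. The one 670 bp from the start had a fold of 1.94, at percentile 0.177 of that library. The fold of 2.34 came from a peak 1.04 kb inside, beyond the 1 kb limit. Among the 17492 genes whose strand the promoter table gives, CHD7 lay within 1 kb of the start of 42.1% and of the 3′ end of 6.87%, and H3K27ac at the start of 46.5% and the 3′ end of 4.56%. CHD7 at the 3′ end alone together with H3K27ac at the start was found at 0.783%. Fgfr2 was singled out for this after its values were seen. Outside the gene, CHD7 and H3K27ac overlapped 11991 bp upstream of the start (CHD7 folds 3.07 and 2.72, H3K27ac folds 3.54 and 2.94). They also overlapped 87.8 kb beyond the 3′ end, where CHD7 was strongest for this gene (folds 4.25 and 3.62). H3K27ac there had folds of 2.59 and 3.83.

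The 250 bases before the start of Fgfr2 are shown because neither mark covered them, unlike the starts of Spry1 and Spry2 below. They hold 44.0% G and C with 2 CpG dinucleotides, against medians of 52.4% and 6 over the 32851 such windows of the RefSeq table (GRCm38.p6). Other windows that neither mark covered held more G and C: 61.2% for Fgf10, 66.8% for the first of Fgfr3, and 62% and 71.2% for Etv5. None of the 7 short motifs searched on both strands was in the window of Fgfr2. The ETS core CCGGAA is in 12.03% of all windows, the CCAAT box CCAAT in 33.8% and the GC box GGGCGG in 32.7%. The E-box CACGTG is in 6.02%, the CRE core TGACGT in 6.47%, the TCF and SOX core ACAAAG in 16.5% and the TATA box TATAAA in 12.4%. In the sequences printed here, 5′ to 3′ in the direction of the gene, capitals mark these motifs.
Fgfr2 upstream, chr7:130266809-130267058, minus strand: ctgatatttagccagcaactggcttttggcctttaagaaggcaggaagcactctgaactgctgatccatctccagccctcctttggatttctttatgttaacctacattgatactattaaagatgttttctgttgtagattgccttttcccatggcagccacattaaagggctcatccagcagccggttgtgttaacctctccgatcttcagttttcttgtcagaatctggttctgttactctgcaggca

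Fgfr3, a receptor known for restraining bone growth, had the weakest CHD7 at an end. The gene is on the plus strand of chromosome 5. Its start region, 33722246 to 33723538, had CHD7 folds of 2.63 and 2.17, and H3K27ac from 33721758 to 33722861 had folds of 2.57 and 2.62. A CHD7 region of folds 2.28 and 2.88 lay 576 bp beyond the 3′ end without H3K27ac (33737644 to 33738080). CHD7 stood within 1 kb of the start and of the 3′ end at 4.65% of genes. The strongest CHD7 region of Fgfr3 lay 15.8 kb upstream of its start, with folds of 3.69 and 3.57 (33705340 to 33705926). H3K27ac overlapped it in library 1 alone, at its lower edge (33704910 to 33705366, fold 3.03). H3K27ac library 2 had a peak just beyond its upper edge (33705930 to 33706402, fold 2.96).

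The ligand genes had no region at an end. Fgf8, a signal of the arch epithelium, had a single CHD7 region, 18.4 kb from its lower end, on chromosome 19 at 45717631 to 45718075. Its folds were 4.81 in library 1 and 2.87 in library 2, so the libraries differed there. H3K27ac was called there in library 2 alone, with a fold of 3.49. Fgf10, a ligand of mesenchyme that signals to epithelium, had no region at all within 100 kb, and the nearest CHD7 region lay 326902 bp from its start. CHD7 library 1 alone had a peak 369 bp upstream of that start (fold 2.63), and library 2 alone had one 16.3 kb upstream (fold 4.11). H3K27ac had no peak at Fgf10 in either library.

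The Sprouty genes held the strongest regions of both marks among the 10 genes. Spry1, on the plus strand of chromosome 3, had both marks over its start. CHD7 at 37639886 to 37640554 had folds of 4.06 and 2.83, and H3K27ac at 37639903 to 37640586 had folds of 5.38 and 4.62. The CHD7 libraries thus differed there, while both H3K27ac values exceeded every other H3K27ac value at these genes. Past the 3′ end, CHD7 lay without H3K27ac at 22.4 kb (37666995 to 37667678, folds 4.16 and 4.50) and at 27.9 kb (37672488 to 37673567, folds 3.76 and 2.51). In neither H3K27ac library was a peak called over them.

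Spry2, on the minus strand of chromosome 14, had H3K27ac but no CHD7 region over its start. H3K27ac at 105896122 to 105896983 had folds of 2.99 and 3.67. CHD7 was called inside that stretch in library 2 alone, with a fold of 2.20. Spry2 had 5 CHD7 regions, all of them away from its ends. At least 5 regions, whether at ends, in bodies or nearest, belonged to 1.75% of all genes. The stretch of genome from which a region would be assigned was 205 kb for Spry2, against a median of 50 kb. The strongest CHD7 region of the 10 genes lay 39.8 kb beyond its 3′ end, at 105851080 to 105852146, with folds of 5.03 and 4.18. H3K27ac was called there in library 2 alone, with a fold of 2.88. Upstream of the start, CHD7 and H3K27ac overlapped at 1.49 kb (CHD7 folds 3.11 and 2.63, H3K27ac folds 3.13 and 2.61) and at 23.6 kb (CHD7 folds 3.20 and 2.55, H3K27ac folds 3.06 and 2.90). The other CHD7 regions, 75.7 kb beyond the 3′ end and 25.9 kb upstream, had mean folds of 2.89 and 2.44. The nearest protein-coding genes were 583 and 209 kb away.

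The upstream sequences of these genes are shown because H3K27ac covered part of each, and CHD7 part of that of Spry1 only. In Spry1, CHD7 and H3K27ac covered 61 and 44 of the 250 bases, and the window holds a CCAAT box and a GC box, each found once. The CHD7 cover came from library 1 alone, as the peak of library 2 began 12 bp inside the gene. In Spry2, H3K27ac covered 164 bases and CHD7 0, and ACAAAG, read on the other strand, was the motif found. Each holds 62.4% G and C and 23 CpG dinucleotides, above the medians given for all windows.
Spry1 upstream, chr3:37639697-37639946, plus strand: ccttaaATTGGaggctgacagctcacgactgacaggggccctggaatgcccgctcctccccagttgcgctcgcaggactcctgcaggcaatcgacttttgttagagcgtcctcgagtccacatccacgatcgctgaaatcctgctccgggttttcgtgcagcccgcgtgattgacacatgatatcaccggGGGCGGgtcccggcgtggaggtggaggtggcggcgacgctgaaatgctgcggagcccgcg
Spry2 upstream, chr14:105896820-105897069, minus strand: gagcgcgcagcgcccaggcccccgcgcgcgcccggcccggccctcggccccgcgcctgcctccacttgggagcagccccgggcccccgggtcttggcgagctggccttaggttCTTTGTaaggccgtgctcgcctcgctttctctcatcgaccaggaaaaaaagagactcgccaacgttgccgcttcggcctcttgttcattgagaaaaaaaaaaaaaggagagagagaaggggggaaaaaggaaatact

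Spry4 carried a pair of regions of each mark, on both sides of its upper end on chromosome 18. Inside the gene, CHD7 at 38600873 to 38601324 had folds of 2.85 and 3.47, and H3K27ac at 38600582 to 38601192 had 2.84 and 2.89. Outside it, CHD7 at 38601645 to 38602155 had folds of 2.85 and 3.29, and H3K27ac at 38601584 to 38602201 had 4.02 and 3.92. The end itself, at 38601347, lay in a gap of 320 bp between the CHD7 regions and of 391 bp between the H3K27ac regions. An end of Arhgap26 lies 0.269 kb beyond, so all 4 of these regions lie within 1 kb of both genes. The outer CHD7 and H3K27ac regions were 28 and 0 bp from Arhgap26, and the inner ones 293 and 425 bp. H3K27ac without CHD7 lay 43.5 kb beyond the other end of Spry4, with folds of 4.25 and 3.37.

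The target factor genes repeated this arrangement in part. Etv5, on the minus strand of chromosome 16, had CHD7 at 22438846 to 22439475 inside its start (folds 2.07 and 3.58) and at 22440048 to 22440570 upstream of it (folds 3.36 and 3.34). H3K27ac at 22438960 to 22439522 and 22440000 to 22440538 had folds of 3.00 and 3.08, and of 3.55 and 3.27. The gap measured 572 bp between the CHD7 regions and 477 bp between the H3K27ac regions. CHD7 regions on both sides of an uncovered end were found at 11.7% of the genes with CHD7 at an end. H3K27ac regions were so placed at 15.4% of the genes with H3K27ac there, and both marks at 6.21% of genes with both. Spry4 and Etv5 were the 2 genes of the 6 with both marks that had it, a pattern looked for after their values were seen.

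Etv4, on chromosome 11, had H3K27ac 68 bp inside its upper end (101784716 to 101785242, folds 3.75 and 4.04). Each CHD7 library had a peak at this end, but not the same one. Library 1 had it 241 bp outside the gene (fold 3.86) and library 2 had it 22 bp inside (fold 4.10), 262 bp apart, so no CHD7 region was counted. Counting genes with a peak at an end in each library, without asking that the peaks overlap, gave 7 of the 10 genes for CHD7, against 45.2% of all genes. This count was added after the values were seen. The CHD7 region of Etv4 lay 29.7 kb beyond the same end, with folds of 4.06 and 3.64 (101815018 to 101815708). H3K27ac overlapped it with folds of 3.0996 and 3.51, and a further H3K27ac region lay 28.7 kb beyond the end (folds 3.99 and 3.45). Within Etv5, 9.95 kb from its start, CHD7 had folds of 3.08 and 3.46, and H3K27ac was called over it in library 1 alone (fold 3.20). H3K27ac regions of Etv5 without CHD7 lay 10.7 kb inside the start (folds 3.70 and 3.22) and 22.2 kb beyond the 3′ end (folds 3.42 and 3.72).

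The 250 bases before the upper start of Etv5 are shown because they lie wholly in the gap between its regions, covered by neither mark. They hold 71.2% G and C, 27 CpG dinucleotides, 3 CCAAT boxes and 3 GC boxes, and no other motif searched. The ETS core CCGGAA was in none of the 8 upstream windows that the table lists for Fgfr2, Fgfr3, Fgf10, Spry1, Spry2 and Etv5, the 6 genes with an entry.
Etv5 upstream, chr16:22439571-22439820, minus strand: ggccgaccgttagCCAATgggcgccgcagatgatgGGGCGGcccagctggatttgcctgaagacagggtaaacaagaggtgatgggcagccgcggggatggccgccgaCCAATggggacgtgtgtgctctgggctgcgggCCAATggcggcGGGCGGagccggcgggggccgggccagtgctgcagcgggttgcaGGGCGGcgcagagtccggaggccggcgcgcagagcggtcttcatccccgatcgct

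**Figure D2:**
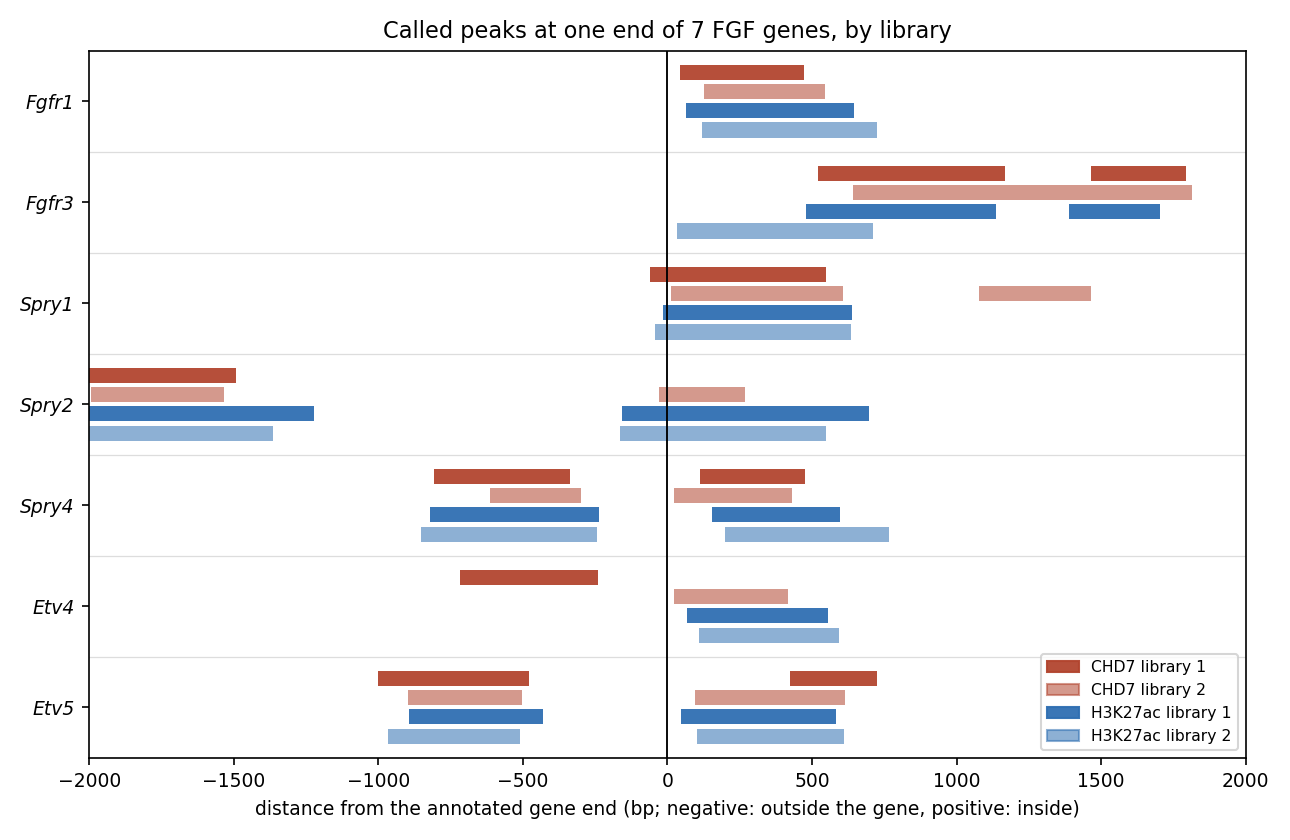
Peaks called in each ChIP library around an annotated end of 7 genes, by distance from that end in bp (negative outside the gene, positive inside), from 2000 bp outside to 2000 bp inside. CHD7 and H3K27ac leave the end itself uncovered at Spry4 and Etv5, H3K27ac covers it at Spry1 in both libraries and CHD7 in library 1 alone, and the CHD7 peaks of Etv4 lie on different sides in the 2 libraries.

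At the gene ends these genes had low to middling folds for the lists they stand in. By mean fold of CHD7 (SD, n = 2), the order was Fgfr1 (3.50 ± 0.40), Etv5 (3.47 ± 0.16), Spry1 (3.44 ± 0.87), Spry4 (3.16 ± 0.43), Fgfr2 (2.80 ± 0.23) and Fgfr3 (2.75 ± 0.17). Here a gene's value in a library is its highest fold at either end, which came from a different region in each library for Etv5 and, with the regions at opposite ends of the gene, for Fgfr3. The library values of all 5 neighbouring pairs in this order overlapped. The median over the 9618 genes with CHD7 at an end was 3.75, and all 6 lay below it, between percentiles 5.45 for Fgfr3 and 35.9 for Fgfr1.

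For H3K27ac the order was Spry1 (5.0 ± 0.54), Spry4 (3.97 ± 0.08), Fgfr1 (3.95 ± 0.13), Etv4 (3.89 ± 0.21), Etv5 (3.41 ± 0.20), Spry2 (3.33 ± 0.48), Fgfr3 (2.60 ± 0.03) and Fgfr2 (2.46 ± 0.17). Library values did not overlap between Spry1 and Spry4, between Etv4 and Etv5, and between Spry2 and Fgfr3. They overlapped in the other 4 neighbouring pairs. The median over the 10372 genes with H3K27ac at an end was 4.82, and Spry1, at percentile 55.4, was the only one of the 8 above it. Fgfr2 and Fgfr3 stood at percentiles 0.328 and 0.607. The library 1 value of Fgfr2 was that of a peak 1.04 kb inside the gene, and its peak within 1 kb had a fold of 1.94. In a sorted bulk sample, fewer cells with a mark and less of it per cell cannot be told apart.

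**Figure D3:**
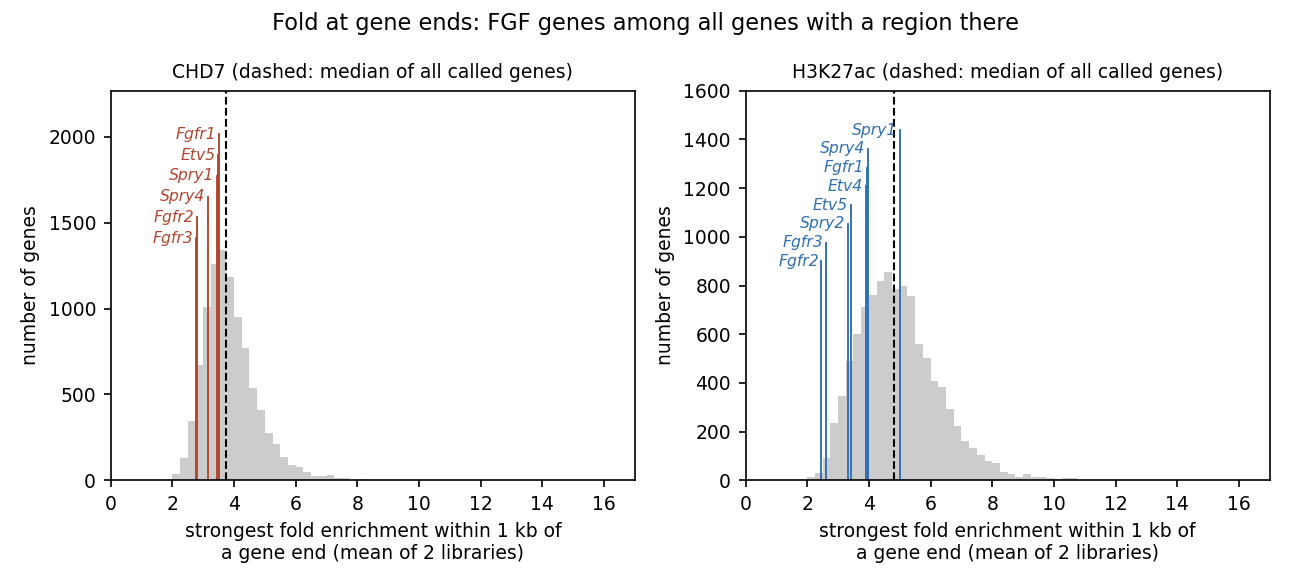
Number of genes (y axis) by the strongest fold within 1 kb of an end, as the mean of 2 libraries (x axis), for CHD7 on the left and H3K27ac on the right. The coloured lines mark the 6 and 8 FGF genes with a region there and the dashed line the median of all genes with one, 3.75 for CHD7 and 4.82 for H3K27ac. Spry1 for H3K27ac is the only FGF gene to the right of a dashed line.

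Over regions of every class the same held for H3K27ac more than for CHD7. Of the 23 CHD7 regions, 7 had a mean fold above the median of all 19947 CHD7 regions, 3.46. Of the 22 H3K27ac regions, 1 exceeded the median of all 17756, 4.06, and this was the start of Spry1. The CHD7 regions above their median were those at the lower end of Fgfr1 and the distal ones of Fgfr2 (87.8 kb), Fgfr3, Fgf8, Spry1 (22.4 kb), Spry2 (39.8 kb) and Etv4. The median mean fold was 3.07 for the 9 CHD7 regions at ends and 3.20 for the 14 elsewhere, and 3.37 and 3.31 for the 10 and 12 H3K27ac regions. Over all regions it was 3.58 at ends and 3.33 elsewhere for CHD7, and 4.46 and 3.41 for H3K27ac.

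**Figure D4:**
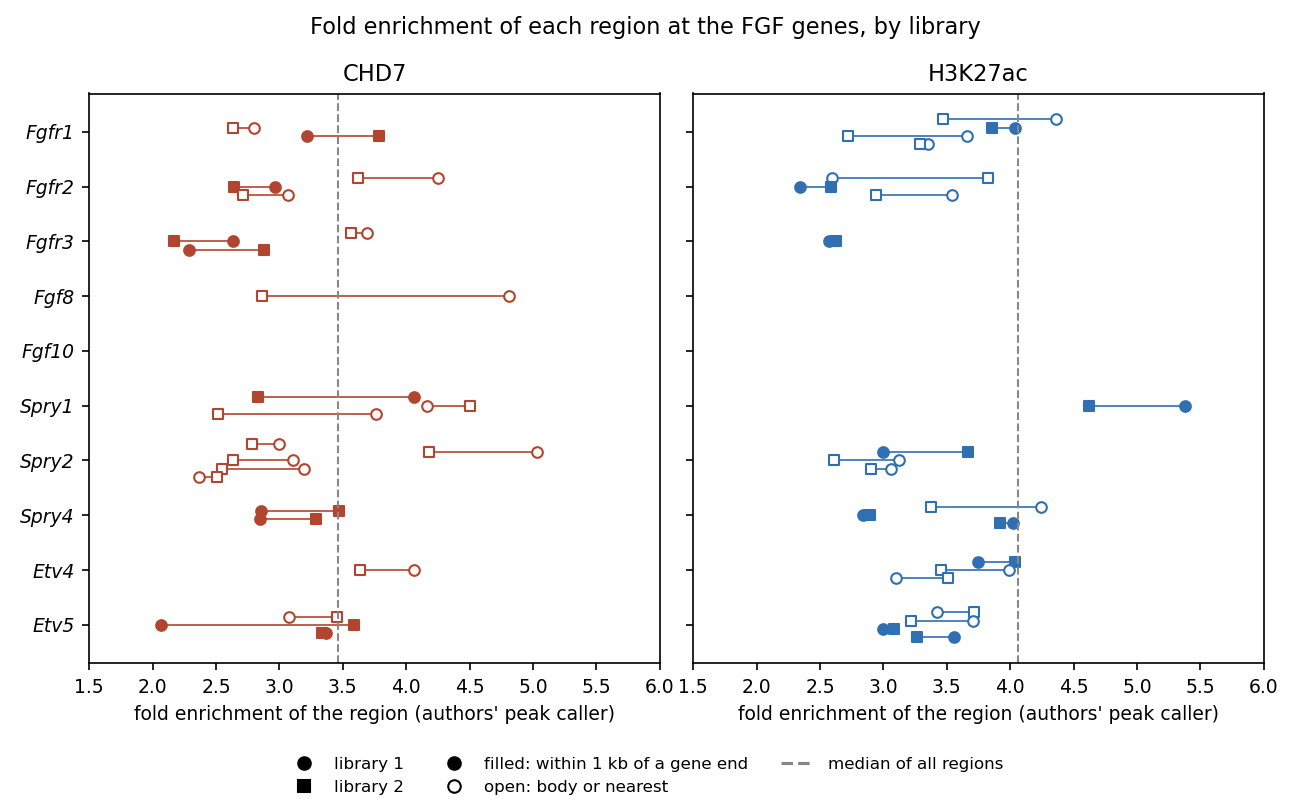
Fold enrichment (x axis) of every region found in both libraries at the 10 genes (rows), CHD7 on the left and H3K27ac on the right. Circles are library 1 and squares library 2 of the same region, joined by a line, filled within 1 kb of a gene end and open elsewhere, and the dashed line is the median of all regions of that mark. The CHD7 region of Fgf8 spans 2.87 to 4.81, and no row of Fgf10 holds a point.

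H3K27ac overlapped 13 of the 23 CHD7 regions (56.5%), against 60.4% of all CHD7 regions (95% Wilson interval of the 13 of 23, 36.8% to 74.4%, for counting error alone). At gene ends it overlapped 7 of 9, against 80.4% of all, and elsewhere 6 of 14, against 39.5%. Conversely, CHD7 overlapped 13 of the 22 H3K27ac regions, against 66.8% of all, namely 7 of 10 at ends (72% of all) and 6 of 12 elsewhere (57.7% of all). The overlaps spanned 320 to 671 bp, with a median of 93.9% of the CHD7 region. Of the 10 CHD7 regions without an H3K27ac region, 5 had a peak of an H3K27ac library over them, against 25.2% of such CHD7 regions in all. Those 5 were the distal regions of Fgfr3 and Fgf8, 2 of Spry2 and the body region of Etv5. The regions past the 3′ ends of Fgfr2 and Fgfr3, both of Spry1 and the one farthest from Spry2 had no H3K27ac peak in either library.

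The rest of the pathway was read from lists of its ligands, receptors, signal transducers, inhibitors and targets, 62 genes in all. CHD7 lay at an end of 33 of them (53.2%) and H3K27ac at 39 (62.9%), against 44.2% and 47.6% of all protein-coding genes. The adaptors and MAP kinases, which relay the signal in every cell, carried the marks most often: CHD7 at 15 of 18 and H3K27ac at 18 of 18. Plcg1, a phospholipase bound by the receptors, had CHD7 folds of 4.73 and 5.24, Map2k2, a MAP kinase kinase, 4.82 and 5.03, and Sos2, a Ras exchange factor, 4.73 and 4.61. Their H3K27ac folds lay between 6.31 and 8.52. The median mean CHD7 fold of this list was 4.29, against 3.30 for the receptor and feedback genes.

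The other ligands had the marks least often, CHD7 at 4 of 20 and H3K27ac at 4 of 20, against 44.2% and 47.6% of all protein-coding genes. Fgf4 (CHD7 folds 2.98 and 3.45) and Fgf3 (2.76 and 2.63), ligands of early embryonic signalling centres, had CHD7 without H3K27ac. Fgf15 had both (CHD7 folds 2.86 and 2.41, H3K27ac folds 3.97 and 3.68), in regions that did not overlap. Fgf1, Fgf11, Fgf12 and Fgf13 were among the 14 with neither. Of 6 other receptor, coreceptor and FGF-binding genes, 3 had CHD7 and 2 had H3K27ac. Kl and Klb, the Klotho coreceptors of hormone-like FGFs, had CHD7 alone (folds 2.95 and 4.11 for Kl, 2.98 and 2.61 for Klb), and Fgfbp3, of a secreted FGF-binding protein, had both (CHD7 folds 3.47 and 3.27). Fgfbp1 and Fgfrl1 had neither.

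Of 10 other inhibitors and modulators, 6 had CHD7 and 8 had H3K27ac, the same counts as for the 10 receptor and feedback genes. Over all protein-coding genes the shares were 44.2% and 47.6%. Il17rd, of a membrane protein that inhibits FGF signalling, had CHD7 folds of 3.53 and 4.73, Cbl, a ubiquitin ligase, 4.56 and 3.41, and Spred2, a Sprouty relative, 3.83 and 4.09. Dusp6, the phosphatase that inactivates ERK, had lower CHD7 folds of 2.39 and 2.62 beside H3K27ac folds of 4.16 and 3.14, and was picked after its values were seen. Flrt1 and Flrt2 had neither mark. Of 8 other target genes, 5 had CHD7 and 7 had H3K27ac. Egr1, an immediate early factor, had CHD7 folds of 4.49 and 4.86, Etv1, the relative of Etv4 and Etv5, 3.87 and 3.40, and Dusp5, another ERK phosphatase, 3.41 and 2.80. Dusp4 had neither. The lists were not tested against each other or against all genes.

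**Figure D5:**
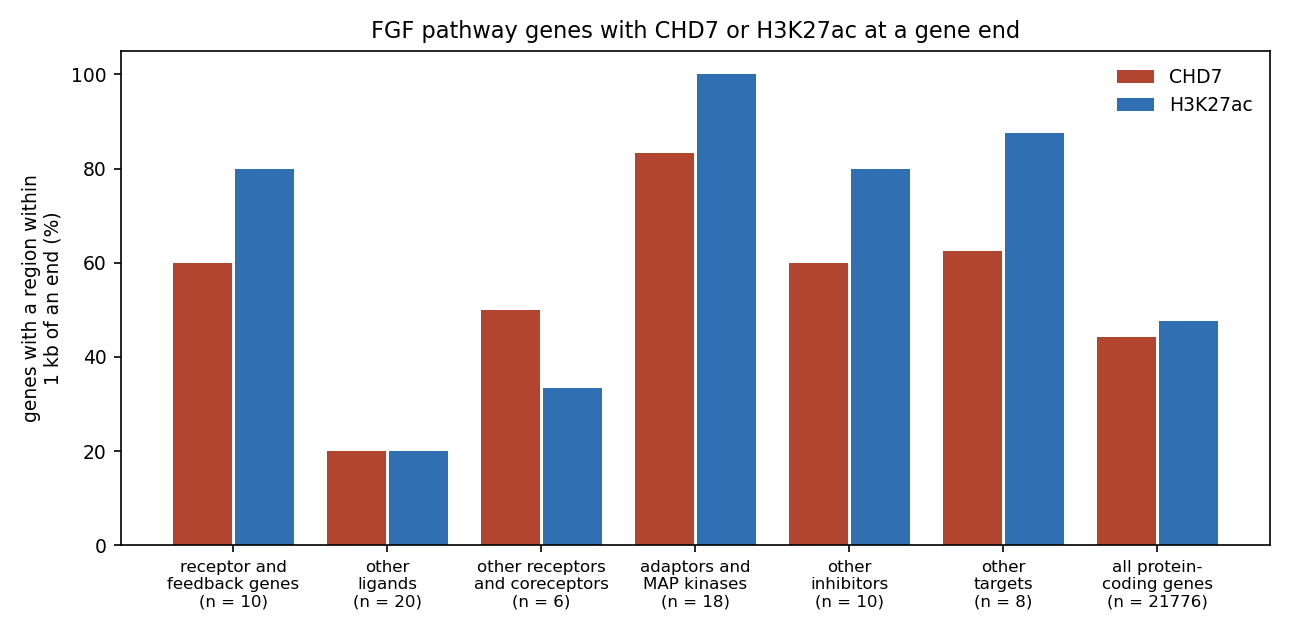
Share of genes in percent (y axis) with a CHD7 or an H3K27ac region within 1 kb of an end, for the 10 receptor and feedback genes, 5 other groups of FGF pathway genes and all 21776 protein-coding genes (x axis, with the number of genes). Adaptors and MAP kinases stand highest, with 83.3% for CHD7 and 100% for H3K27ac, and the other ligands lowest, with 20% for each.

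Fgfr1 had the highest mean CHD7 fold at an end among the 10 genes. Of the 8566 other genes with both marks at an end, those nearest to it in log2 fold over the 4 ChIP libraries were Tbc1d4, Cast and Msh5, at Euclidean distances of 0.04, 0.08 and 0.09. Among so many genes some lie close to any middling value, and the distance usual for other genes is not known here. The closeness therefore shows no relation of these genes to Fgfr1.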

How the data were processed

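ChIP-seq peak lists of 2 CHD7, 2 H3K27ac and 2 input libraries were used. Build mm10 and the tools MACS2 2.1.2, Bowtie2 2.3.3.1, bcl2fastq 2.18.0.12 and Picard are given, with no roles, per the submitters' processing notes. The authors called peaks on each library alone, going by the deposited peak names, and gave for each peak a fold enrichment (a ratio), −log10 p and −log10 q values and a score derived from q. The control used in peak calling is unknown here. Read counts are lacking, so depth is unknown and no interval over reads was computed.

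Rows that shared an interval were joined with the highest fold and q, and chromosomes 1 to 19, X and Y were kept. A region is the merged extent of overlapping peaks (at least 1 bp) with a peak in both libraries of a group. Genes came from the RefSeq table (GRCm38.p6), without 111 protein-coding entries that start below base 3000000 of a chromosome (500000 on Y). Spry3, planned for the inhibitor list, was among them. Strand and upstream sequence came from the RefSeq promoter table, which matched 6 of the 10 genes. Merging and assignment were tested on simulated data. Python 3.11.15, numpy 2.4.6, pandas 2.3.3 and matplotlib 3.10.9 were used.

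The genes and lists were chosen with earlier results of these data known, so no p-values are given. All 10 genes are named. Of each other list, the text names the 3 with the highest mean CHD7 fold at an end and up to 4 with neither mark in alphabetical order. Of the markers, it does so for the neural crest list. Dusp6 and Twist1 fall outside this rule. Alternatives were stricter q limits, either library, each library left out, other distances, and other rules for the nearest gene and for overlap.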

Additional observations from a re-analysis of the deposited data

How the results depend on the processing

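Of 115 values under alternatives, 87 stayed near the reported one, within 1.5 times for a count, the 95% Wilson interval of 36.8% to 74.4% for the share overlapped, or the SD for a fold. Of the 115, 37 were folds of the strongest region of a gene, and 31 of these stayed. Their SD is that of the 2 libraries, so leaving out a library could not take the fold of an unchanged region outside it. Those 31 are therefore no measure of stability. With a −log10 q of at least 10, CHD7 lay at an end of 0 genes (10.6% of all genes), H3K27ac at 2, Spry1 and Fgfr1 (28.3%), and both at 0. There were then 1 CHD7 and 3 H3K27ac regions, 0% of CHD7 regions were overlapped, 9 and 21 pathway genes had CHD7 and H3K27ac, and the median strongest fold was 4.33 and 4.47, against 3.84 and 3.73 with all peaks. With the 10000 peaks of lowest q the values were 2 genes with CHD7, Etv5 and Fgfr1 (20.2% of all), 3 with H3K27ac (31.4%) and 1 with both, 5 and 4 regions, 20% overlapped, and 17 and 25 pathway genes. Under both limits the share of the 10 genes with each mark at an end was no higher than that of all genes, unlike with all peaks. The reason was not tested. With regions found in either library there were 45 CHD7 and 36 H3K27ac regions, and 9 genes with CHD7 at an end (55.1% of all). Letting every gene of the table compete left 15 CHD7 regions.

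Leaving out each library in turn gave 8 genes with CHD7 (49.1% to 51.1% of all genes) and 8 with H3K27ac at an end (49.8% to 51.3%), 6 to 8 with both, 31 to 38 CHD7 and 29 to 30 H3K27ac regions, 45.2% to 69.6% overlapped, 37 to 40 pathway genes with CHD7 and 43 to 46 with H3K27ac, and median strongest folds of 3.70 to 3.88 and 3.83 to 3.85. Without CHD7 library 1 the regions numbered 38, against 23 found in both libraries. With a library left out, a peak no longer had to be found in both, so the counts of genes and regions could hardly fall. Those of them that stayed near the reported value are therefore no measure of stability either. The 8 genes with CHD7 at an end were not the same: Etv4 was added each time, Spry2 without library 1 and Fgf10 without library 2. Within 500 bp, 5 genes had CHD7 (41% of all genes), 7 had H3K27ac (45.1%) and 4 had both, and within 2.5 kb it was 7 (48.5%), 8 (51.2%) and 7. In overlapping regions 5 genes had both. No paired analysis was possible because no result comes from a test. Without read counts, a peak missed in a library and one absent there cannot be told apart.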

Other observations

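Of the 13 nearest CHD7 regions, 8 lay nearer to a non-coding gene or pseudogene than to their FGF gene, as did 5 of the 9 nearest H3K27ac regions. The like share over all regions is not known here, so these counts show nothing particular to the FGF genes. The CHD7 region at 39.8 kb from Spry2 lay 21.7 kb from Gm41239, and the one at 18.4 kb from Fgf8 lay 8.48 kb from 4933429K18Rik. Those of Spry1 lay 10478 and 15971 bp from Gm46799. None of these is known from the files to act on either neighbour.

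Peaks of 1 library alone at the 10 genes numbered 7 and 15 in CHD7 libraries 1 and 2, with median folds of 2.63 and 2.72, and 6 and 8 in H3K27ac libraries 1 and 2, with median folds of 3.12 and 2.83. Spry2 held 4 of the 15 of CHD7 library 2, of which 1 overlapped its start. CHD7 library 2 also had a peak 4.77 kb upstream of Spry1 (fold 4.17), the highest fold among these.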
